A study of Mus with 4 samples.

Results

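Genes that mark macrophages and neutrophils were followed in RNA-seq libraries of newborn mouse heart. The set comprised 10 genes out of the 55487 in the deposited table, chosen by name, with earlier results of these data known, and by no threshold on their values. It held 8 genes of resident macrophages (*Adgre1*, *Csf1r*, *Lyve1*, *Mrc1*, *C1qa*, *C1qb*, *C1qc* and *Lyz2*) and 2 genes of neutrophils (*S100a8* and *S100a9*). Values are FPKM, that is, fragments per kilobase of transcript scaled to the mapped fragments of the library. All 10 genes averaged 1 FPKM or more across libraries and were tested together with the other genes that did so (14325 in all).

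The 4 libraries form 2 groups, WT and miR-187, with 2 replicates each, all at P0. The study describes the miR-187 mice as a knock-in at the *Rosa26* locus on a C57BL/6J background, in which the *Tek* (*Tie2*) promoter drives mmu-miR-187, a microRNA, in endothelial cells. The labels give neither the zygosity of these animals nor whether replicates are separate hearts, so the spread between libraries may be technical. The p-values and intervals rest on that spread, with each gene's variance drawn toward a value shared across genes. The labels name heart as the source, whereas the methods of the study name KI/KI and WT animals and speak of cardiac endothelial cells. The level of miR-187 and markers of other heart cell types were not analysed here, because the deposited table identifies genes by Ensembl ID alone.

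Resident macrophages settle in the heart before birth, where they clear dying cells, take part in shaping vessels and are maintained through the receptor encoded by *Csf1r*. Neutrophils are short-lived cells that arrive from the blood and carry large amounts of the calcium-binding proteins S100A8 and S100A9. The study isolated mouse cardiac endothelial cells with CD31 beads, but the labels of these libraries name no sort. CD31 is also carried by neutrophils, monocytes and part of the macrophages. In a library of mixed cells, fewer cells of a type and less RNA per cell cannot be told apart.

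Before the genes were compared, the libraries themselves were examined. Sums of FPKM lay between 750826 and 807359, and read depth is unknown. The library of miR-187 replicate 2 stood apart, with 16 tested genes of at least 10 FPKM that were at least 10 times above every other library, compared with 4 such genes in WT replicate 2 and 0 in both replicate 1 libraries. None of the 10 macrophage and neutrophil genes was among them (0 in each library). Median FPKM over all IDs was 0.562 and 0.402 in replicate 1 of WT and miR-187, and 0.241 and 0.261 in replicate 2.

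All 10 genes were detected in all 4 libraries, and the chains of the complement protein C1q were the most abundant. FPKM is scaled by transcript length, so levels were ordered between genes, but this order is approximate. *C1qb* was highest with a mean of 485 FPKM over the 4 libraries, at the 99.0th percentile of tested genes, followed by *C1qc* with 185 FPKM and *C1qa* with 106 FPKM. *Lyz2* averaged 87.2 FPKM, *S100a8* 46.2 FPKM and *S100a9* 30.8 FPKM. Receptors were lower, with 21.9 FPKM for *Csf1r*, 9.93 FPKM for *Adgre1*, 5.56 FPKM for *Mrc1* and 5.51 FPKM for *Lyve1*, the last of these at the 59.6th percentile. In each pair of neighbours in this order the ranges over libraries overlapped. Nevertheless, the order held in all 4 libraries for *C1qb* over *C1qc*, *C1qc* over *C1qa*, *Lyz2* over *S100a8*, *S100a8* over *S100a9*, *Csf1r* over *Adgre1* and *Adgre1* over *Mrc1*. It held in 3 libraries for *S100a9* over *Csf1r* and *Mrc1* over *Lyve1*, and in 2 for *C1qa* over *Lyz2*.

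**Figure D1:**
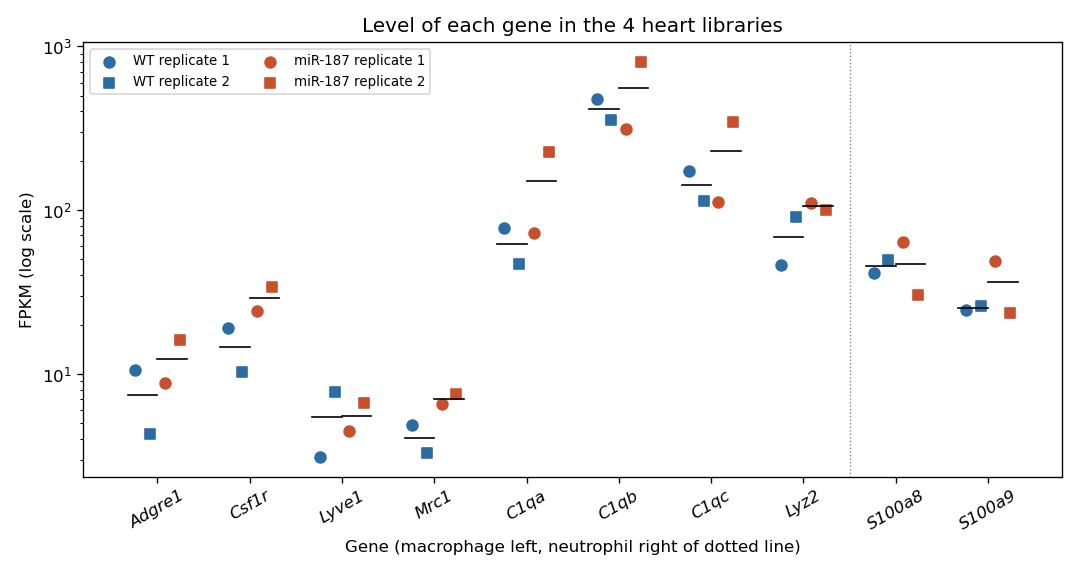
FPKM (vertical log axis) of the 8 macrophage and 2 neutrophil genes in each heart library. Colours stand for WT and miR-187, circles for replicate 1, squares for replicate 2 and horizontal lines for group means; groups overlap for 7 of the 10 genes, and *C1qb* is highest in every library.

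The series was described as asking how raised miR-187 affects gene expression in the newborn heart, and its groups were compared here for these myeloid transcripts. None of the 10 genes passed the threshold, with 0 higher and 0 lower at an adjusted p under 0.05 (limma with Benjamini-Hochberg adjustment over all tested genes). Among all 14325 genes, 0 (0%) were called higher and 1 (0.00698%) was called lower. Before adjustment 2 of the 10 genes had a p under 0.05, *Csf1r* and *C1qa*, compared with 3.12% of tested genes. With no filter on low values this count was 0 of the 10 genes, beside 1122 of all 55487 genes. With equal library sums it was 3 of the 10, beside 463 of 14325. When 1 library was left out, the log2 difference ran from 0.57 to 1.40 for *Csf1r* and from 0.26 to 1.89 for *C1qa*. The fitted difference was positive for 9 genes and negative for 1, with a median of 0.59 on the log2(FPKM + 1) scale, whereas the median over all tested genes was -0.04. Both miR-187 values exceeded both WT values for 3 of the 10 genes (*Csf1r*, *Mrc1* and *Lyz2*), compared with 12.3% of all tested genes, and were below both for 0 of the 10, compared with 13.2%. A difference of 2-fold or more on this scale was reached by 1 of the 10 genes, *C1qa*, which was higher in miR-187, compared with 0.6% of tested genes in this direction and 0.817% in the other. For 8 of the 10 genes the larger gap between replicates of a group exceeded the difference between groups. The share of all tested genes for which this held was not computed.

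*Csf1r* (ENSMUSG00000024621) encodes the receptor for colony-stimulating factor 1 and interleukin 34, on which most tissue macrophages depend. In replicates 1 and 2, in this order throughout, the WT libraries gave 19.0 and 10.3 FPKM and the miR-187 libraries 24.3 and 34.0 FPKM. Both miR-187 libraries were thus above both WT libraries. The WT mean was 14.6 ± 6.17 FPKM and the miR-187 mean 29.2 ± 6.90 FPKM (SD, n = 2 each), a ratio of 1.99. On the log2(FPKM + 1) scale the difference was 0.99 with a standard error of 0.41, a 95% interval of 0.15 to 1.83 and an unadjusted p of 0.0235 (adjusted p = 0.9997, limma). Taken by replicate number, which the labels do not describe as a pairing, the difference was 0.34 for replicate 1 and 1.64 for replicate 2. It was 0.57 when WT replicate 2, the lowest library, was left out, and at most 1.40, without WT replicate 1.

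*Mrc1* (ENSMUSG00000026712), which encodes the mannose receptor CD206, and *Adgre1* (ENSMUSG00000004730), which encodes the surface antigen F4/80, had profiles close to that of *Csf1r*. In the RefSeq annotation of GRCm38.p6, used for all positions given here, *Mrc1* lies on chromosome 2 at 14229414 to 14332023 and *Adgre1* on chromosome 17 at 57358581 to 57483529. *Mrc1* measured 4.90 and 3.28 FPKM in WT libraries, against 6.53 and 7.53 FPKM in miR-187 libraries, without overlap of the groups. The difference was 0.67 (standard error 0.35) with a 95% interval of -0.06 to 1.41 (adjusted p = 0.9997, limma), and it was 0.44 without WT replicate 2. *Adgre1* measured 10.5 and 4.29 FPKM in WT libraries, against 8.84 and 16.1 FPKM in miR-187 libraries. Here the groups overlapped, since the library of miR-187 replicate 1 lay below that of WT replicate 1. The difference was 0.73 (standard error 0.42) with a 95% interval of -0.13 to 1.59 (adjusted p = 0.9997, limma), and it ran from 0.17 without WT replicate 2, through 0.33 without miR-187 replicate 2 and 1.13 without miR-187 replicate 1, to 1.29 without WT replicate 1. All 3 receptor genes were lowest in WT replicate 2 and highest in miR-187 replicate 2.

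*Lyve1* (ENSMUSG00000030787), a hyaluronan receptor found on a subset of cardiac macrophages and also on lymphatic endothelium, did not follow the other receptors. Its gene lies on chromosome 7 at 110850607 to 110862953. It measured 3.12 and 7.80 FPKM in WT libraries, against 4.48 and 6.63 FPKM in miR-187 libraries. The lowest and the highest value both belonged to WT, and both miR-187 libraries lay between them. The WT mean was 5.46 ± 3.31 FPKM and the miR-187 mean 5.56 ± 1.51 FPKM (SD, n = 2 each), with a difference of 0.10 on the log2(FPKM + 1) scale and a 95% interval of -0.71 to 0.92 (adjusted p = 0.9997, limma). The difference was -0.44 without WT replicate 1, -0.13 without miR-187 replicate 2 and 0.65 without WT replicate 2.

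*C1qa* (ENSMUSG00000036887), *C1qb* (ENSMUSG00000036905) and *C1qc* (ENSMUSG00000036896) encode the 3 chains of C1q, which binds immune complexes and dying cells, starts the classical complement pathway and is made in tissues mainly by macrophages. The genes are neighbours on chromosome 4, at positions 136880126 to 136886200 for *C1qb*, 136889801 to 136892936 for *C1qc* and 136895916 to 136898844 for *C1qa*. RefSeq lists 0 genes in the gaps of 3600 and 2979 bases between them.

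All 3 chains had their highest value in the same library. *C1qa* measured 78.2 and 46.6 FPKM in WT libraries, against 72.4 and 227 FPKM in miR-187 libraries. *C1qb* measured 474 and 356 FPKM in WT libraries, against 313 and 799 FPKM in miR-187 libraries. *C1qc* measured 172 and 113 FPKM in WT libraries, against 112 and 344 FPKM in miR-187 libraries. For each chain the library of miR-187 replicate 2 was highest, by 2.90 times over the next library for *C1qa*, 1.69 times for *C1qb* and 2.00 times for *C1qc*, while that of miR-187 replicate 1 lay below that of WT replicate 1. Summed over the chains, the level was 724 and 515 FPKM in WT libraries, against 497 and 1369 FPKM in miR-187 libraries, which was 0.0896%, 0.0686%, 0.0634% and 0.173% of the FPKM sum of the respective libraries.

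The difference between groups for the C1q chains therefore depended on miR-187 replicate 2. For *C1qa* it was 1.07 on the log2(FPKM + 1) scale with a standard error of 0.49, a 95% interval of 0.06 to 2.09 and an unadjusted p of 0.0395 (adjusted p = 0.9997, limma). For *C1qc* it was 0.50 with a 95% interval of -0.52 to 1.52, and for *C1qb* 0.28 with a 95% interval of -0.71 to 1.28 (adjusted p = 0.9997 for both, limma). By replicate number, the miR-187 minus WT difference for replicate 1 was -0.11 for *C1qa*, -0.60 for *C1qb* and -0.61 for *C1qc*. For replicate 2 it was 2.26, 1.16 and 1.60, so the numbers differed in sign for all 3 chains. Without miR-187 replicate 2, the group difference was 0.26 for *C1qa* but -0.39 for *C1qb* and -0.31 for *C1qc*. Without miR-187 replicate 1 it was 1.89 for *C1qa*, 0.96 for *C1qb* and 1.30 for *C1qc*. The 16 genes that stood out in miR-187 replicate 2 made up 0.879% of its FPKM sum, and their part in the C1q values was not tested.

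**Figure D2:**
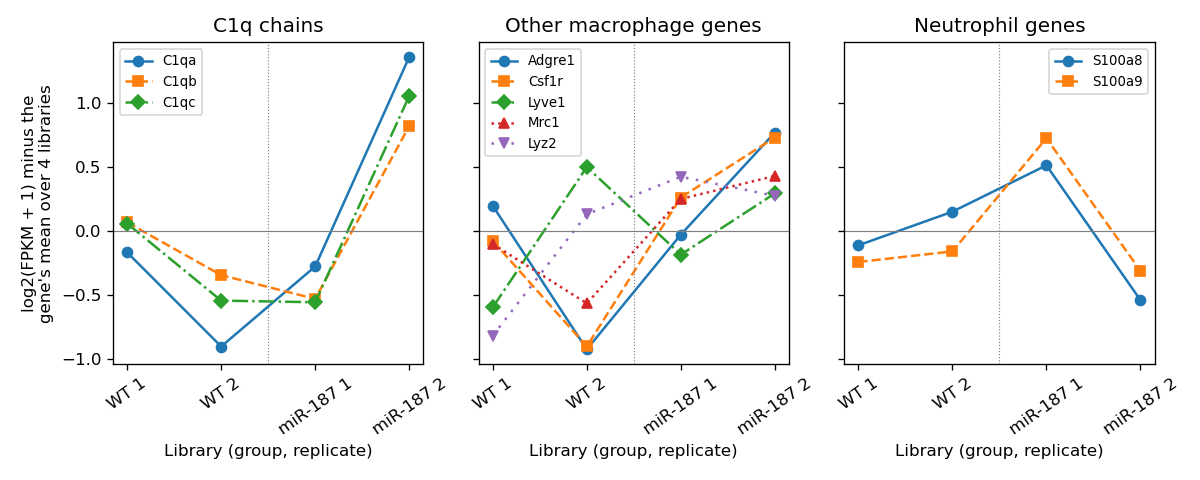
log2(FPKM + 1) of each gene minus its mean over the 4 libraries (vertical axis), for the C1q chains, the other macrophage genes and the neutrophil genes, with 1 position per library. Lines join the values of a gene to guide the eye and do not imply an order of libraries. The C1q chains are highest in miR-187 replicate 2, where both neutrophil genes are lowest.

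*Lyz2* (ENSMUSG00000069516) encodes lysozyme, a bactericidal enzyme of macrophages and granulocytes that is also made by alveolar cells of the lung. It measured 46.4 and 90.4 FPKM in WT libraries, against 111 and 100 FPKM in miR-187 libraries. Groups did not overlap, although WT replicate 2 lay near the miR-187 libraries and WT replicate 1 lay apart. The WT mean was 68.4 ± 31.1 FPKM and the miR-187 mean 106 ± 7.83 FPKM (SD, n = 2 each), a difference of 0.70 on the log2(FPKM + 1) scale with a standard error of 0.43 and a 95% interval of -0.20 to 1.59 (adjusted p = 0.9997, limma). The difference was 0.22 without WT replicate 1 and 1.17 without WT replicate 2. *Lyz2* lies at positions 117277541 to 117282272 of chromosome 10, and its close paralog *Lyz1* follows after a gap of 5522 bases. Reads of the pair may have been divided between both genes, so the *Lyz2* values are uncertain. Unlike the C1q chains, *Lyz2* was not highest in miR-187 replicate 2.

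*S100a8* (ENSMUSG00000056054) and *S100a9* (ENSMUSG00000056071) encode the subunits of calprotectin, which binds calcium and zinc and is abundant in the cytosol of neutrophils; monocytes carry it as well. Both genes lie on chromosome 3, *S100a8* at positions 90669071 to 90670034 and *S100a9* at 90692630 to 90695721, with 0 RefSeq genes in the gap of 22595 bases. *S100a8* measured 41.1 and 49.5 FPKM in WT libraries, against 63.9 and 30.3 FPKM in miR-187 libraries. *S100a9* measured 24.6 and 26.1 FPKM in WT libraries, against 49.0 and 23.4 FPKM in miR-187 libraries. For both genes the miR-187 libraries lay on either side of the WT libraries, with replicate 1 highest and replicate 2 lowest.

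The replicates of WT differed little in these genes, by 1.20 times for *S100a8* and 1.06 times for *S100a9*, whereas those of miR-187 differed by 2.11 and 2.09 times. Means were 45.3 ± 5.90 and 47.1 ± 23.7 FPKM for *S100a8* in WT and miR-187, and 25.3 ± 1.05 and 36.2 ± 18.1 FPKM for *S100a9* (SD, n = 2 each). The difference on the log2(FPKM + 1) scale was -0.03 for *S100a8*, with a 95% interval of -0.92 to 0.85, and 0.41 for *S100a9*, with a 95% interval of -0.46 to 1.28 (adjusted p = 0.9997 for both, limma). The sign for *S100a8* was positive with median centring, with TMM factors and with equal library sums, by at most 0.06. For *S100a8* the difference was 0.49 without miR-187 replicate 2 and -0.56 without miR-187 replicate 1. *S100a9* had a difference of 0.93 without miR-187 replicate 2 and -0.11 without miR-187 replicate 1.

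**Figure D3:**
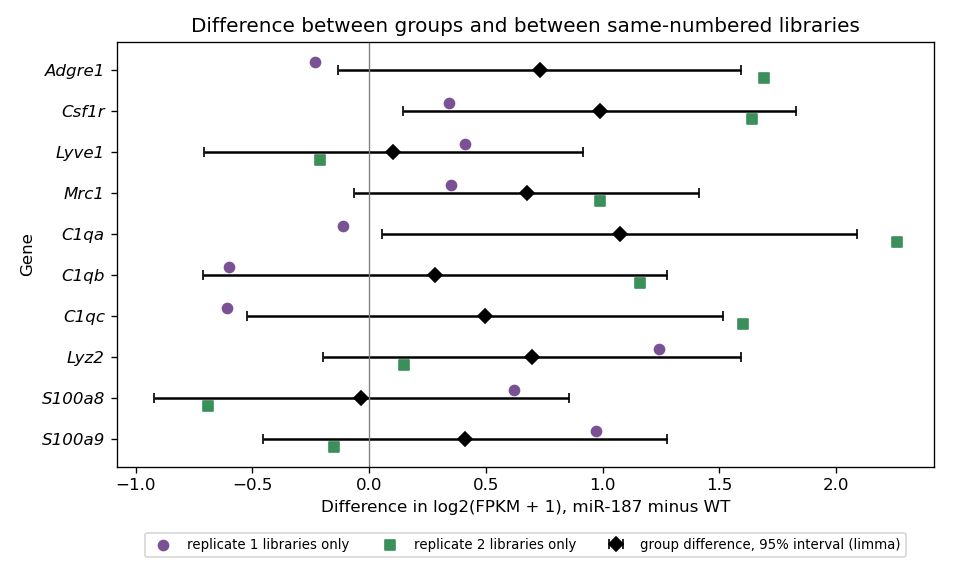
Difference in log2(FPKM + 1), miR-187 minus WT (horizontal axis), for each gene. Diamonds with bars are the group difference and its 95% interval from limma, circles the difference in replicate 1 and squares that in replicate 2; for the C1q chains the circles lie below 0 and the squares above it. The labels do not say that replicate numbers pair the libraries.

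The library of miR-187 replicate 2 was the highest for 6 of the 8 macrophage genes (17.3% of tested genes) and the lowest for both neutrophil genes (39.1% of tested genes). WT replicate 2 was the lowest for 4 macrophage genes, namely *Adgre1*, *Csf1r*, *Mrc1* and *C1qa*, and for 22.9% of tested genes. WT replicate 1 was the lowest for *Lyve1* and *Lyz2* (22.0% of tested genes), and miR-187 replicate 1 for *C1qb* and *C1qc* (16.0% of tested genes). Summed over *Adgre1*, *Csf1r*, *Lyve1* and *Mrc1*, the level was 37.5 and 25.6 FPKM in WT libraries, against 44.1 and 64.3 FPKM in miR-187 libraries. The neutrophil pair summed to 65.7 and 75.5 FPKM in WT libraries, against 113 and 53.7 FPKM in miR-187 libraries. Between the miR-187 libraries these sums differed in opposite directions.

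To compare the genes independently of the scaling of each library, ratios were taken within libraries. The spread of a ratio is given as the SD of its log2 value over the 4 libraries, with a median of 0.79 over the 45 pairs that 10 genes can form. It was smallest for *C1qb* to *C1qc* (0.18), followed by *Csf1r* to *Mrc1* (0.22), *Adgre1* to *Csf1r* (0.26), *S100a8* to *S100a9* (0.27) and *C1qa* to *C1qc* (0.34). The third pair of C1q chains, *C1qa* to *C1qb*, had a larger spread (0.50), behind pairs across these sets such as *Adgre1* to *C1qa* (0.42). *Lyve1* to *Lyz2* had a spread of 0.46, against 1.04 for *Lyve1* to *Csf1r*. *Lyz2* had spreads of 0.54 with *S100a9*, 0.64 with *S100a8* and 0.65 with *Mrc1*. Its spreads with *Csf1r*, *Adgre1* and the C1q chains ran from 0.82 to 1.04. The spread was largest for *C1qa* to *S100a8* (1.35). These values describe 4 libraries that share genes between pairs, and no test was applied.

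Relative to the other chains, *C1qa* was higher in both miR-187 libraries than in both WT libraries. The ratio of *C1qb* to *C1qa* was 6.06 and 7.63 in WT and 4.32 and 3.52 in miR-187, and that of *C1qc* to *C1qa* was 2.19 and 2.42 in WT and 1.55 and 1.52 in miR-187. Both ratios were below the WT range in both miR-187 libraries, and the group means of the log2 ratios differed by -0.80 and -0.59 (miR-187 minus WT). By contrast, *C1qb* to *C1qc* had 2.76 and 3.15 in WT and 2.78 and 2.32 in miR-187, with overlapping groups. A ratio does not tell which of its genes moved. Against *Csf1r*, *C1qb* gave 24.9 and 34.6 in WT and 12.9 and 23.5 in miR-187, without overlap. Ratios of *C1qa* and *C1qc* to *Csf1r* overlapped, with differences of 0.04 and -0.54 between group means of the log2 ratio. *Csf1r* itself was higher in both miR-187 libraries.

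*S100a8* to *S100a9* was 1.67 and 1.90 in WT and 1.30 and 1.29 in miR-187, without overlap and with a difference of -0.46 between the group means of the log2 ratio. Of the 45 possible pairs, 5 (11.1%) had groups that did not overlap. With 2 libraries against 2 the smallest p of an exact permutation test is 0.333, so none was computed. *Csf1r* to *Adgre1* was 1.81 and 2.39 in WT and 2.75 and 2.12 in miR-187, with overlap.

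**Figure D4:**
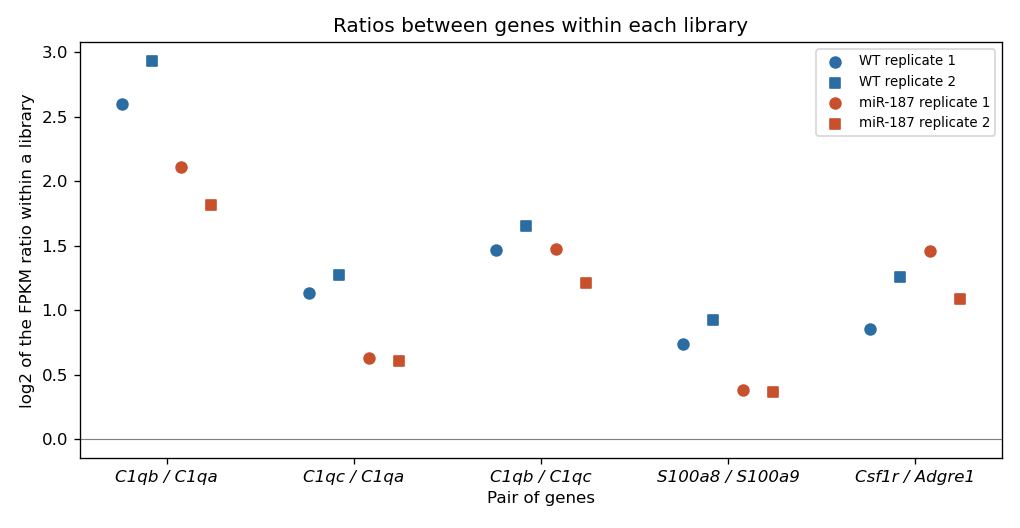
log2 of the ratio of FPKM values within a library (vertical axis) for 5 pairs of genes. Colours stand for WT and miR-187, circles for replicate 1 and squares for replicate 2; groups are apart for *C1qb* to *C1qa*, *C1qc* to *C1qa* and *S100a8* to *S100a9*, and overlap for the other pairs.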

How the data were processed

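RNA-seq was performed on 4 heart libraries at P0. Per the labels, RNA was extracted with TRIzol and mRNA libraries were read from paired ends on the NovaSeq platform of Illumina. The authors deposited a table of FPKM values by Ensembl gene ID. The submitters' processing notes name HISAT2, StringTie, DESeq2 and the build mm10; annotation and use of strand are not given in the sources used here. FPKM divides by the mapped total, so abundant transcripts can lower all others, and without counts no interval based on depth was possible.

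Genes were matched by ID without its version; the pairing of the 10 symbols with Ensembl IDs was supplied with the gene set and could not be checked against the reference. Members and lists were chosen with earlier results of these data known. A further 20 lists with 174 symbols (other myeloid genes, complement, markers of other cell types) had 0 IDs in the RefSeq table of GRCm38.p6 and were not analysed here, nor were genes of similar profile, whose rule needed those names. The naming rule took all 10 members. All 10 were found in RefSeq by symbol; the position of *Csf1r* is not reported here.

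Values were transformed as log2(FPKM + 1), which understates changes of low genes, and genes averaging 1 FPKM or more were fitted in limma 3.58.1 under R 4.3.3 (lmFit, eBayes with trend, no replicate block). The eBayes step drew each gene's variance toward a value shared across genes, with 19.5 prior degrees of freedom. Standard errors, intervals and p-values of single genes therefore rest largely on the spread of other genes. Two-sided p-values were corrected over all tested genes by Benjamini-Hochberg, with a threshold of 0.05. The procedure was tested on simulated data, in which few genes changed by 2-fold were called. A gene that was not called may therefore still differ between groups. As alternatives, the pseudocount was set to 0.1 and the lowest mean to 0.1, 5 or 0 FPKM; others were median centring, TMM factors, equal sums without the 10 highest IDs, eBayes without trend, a replicate block, omission of each library, and 1 FPKM added before ratios. Figures were drawn with matplotlib 3.10.9.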

Additional observations from a re-analysis of the deposited data

How the results depend on the processing

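No macrophage or neutrophil gene passed the threshold under any alternative run (0 higher and 0 lower in each). Of 90 values of the 10 genes under alternatives other than omission of a library, 87 kept their direction. The other 3 were *S100a8*, at 0.0034 with median centring, 0.0187 with TMM factors and 0.0568 with equal sums without the 10 highest IDs. Changing the minimum mean, leaving out the trend or adding the replicate block cannot alter a difference in this design. Values under those settings were thus bound to keep their direction. Without 1 library, 7 of 40 values changed sign. *Lyve1* ran from -0.4447 (without WT replicate 1) to 0.6511, with -0.1347 without miR-187 replicate 2. *C1qb* ran from -0.3922 to 0.9584 and *C1qc* from -0.3072 to 1.299, both lowest without miR-187 replicate 2. *S100a9* ran from -0.1064 (without miR-187 replicate 1) to 0.9267. *S100a8* ran from -0.5599 to 0.4923 (without miR-187 replicate 2), with 0.0966 without WT replicate 2. In fits that leave 1 library in a group, that library is assumed to vary like the others. The 4 ratios within C1q and calprotectin moved by less than their spread when 1 FPKM was added; other ratios were not run.

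Over all genes, calls numbered 31 higher and 15 lower with a minimum mean of 0.1 FPKM, 29 higher and 12 lower with equal sums, and 33 higher and 18 lower with the replicate block. Raising the minimum mean to 5 FPKM (6192 genes tested) gave 0 lower, and removing the filter gave 0 lower too. Without 1 library they ran from 11 to 62 higher and from 14 to 56 lower. Prior degrees of freedom were infinite with the minimum of 0.1 FPKM, with the replicate block and in each run without 1 library. They were 1170 with equal sums, and from 2.66 to 19.5 in all other runs. Whether this set the number of calls was not tested. Deviations of same-numbered libraries correlated across genes with r = -0.0675, and nothing in the labels ties a number to a litter or batch, so libraries were not treated as paired. Depth limits cannot be given, since the values hold no counts.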
